A study of Cavia porcellus with 9 samples.

Results

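Cadherins and protocadherins are calcium-dependent adhesion molecules of the cell surface. The set described here holds the genes of the count table named Cdh followed by a number, or beginning with Pcdh, without the tip-link genes Cdh23 and Pcdh15. By name it has 37 genes among the 19962 of the table. Of these, 32 passed edgeR's filter on low counts over the light groups, as did 15469 genes in all. Libraries came from retinas of male Dunkin-Hartley guinea pigs (Cavia porcellus, tri-color) kept under green light, blue light or white light on a 12:12 hour cycle for 8 weeks and sampled at 12 weeks of age; the animals had been obtained at 2 weeks of age. Each light has 3 libraries, whose titles carry 2 animal labels per light: libraries 1 and 2 share an animal label in green, libraries 2 and 3 in blue, and libraries 1 and 2 in white. The blue and the white pair are titled od and os, whereas both green libraries of the pair are titled od. Whether these came from 1 eye is not stated, so the SD over 3 green libraries may include repeat sampling. In every light an SD is over 3 libraries with 2 animal labels, and not over 3 animals. The titles of green 1 and white 3 also carry the suffix "-B", whose meaning is not stated in the labels.

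Classical cadherins bind a like molecule on the neighbouring cell and hold catenins on the inside of the membrane, which link the junction to actin. Type I members, such as Cdh2 and Cdh1, form strong adherens junctions. Type II members are expressed in many different combinations by neurons, and in the mouse retina several of them guide bipolar and direction-selective circuits to their layers. Protocadherins lack the catenin-binding tail. The non-clustered ones act in axon growth and synapse formation, and the clustered ones are expressed from a tandem gene array in random combinations that let a neuron tell its own branches from those of others. Cdh13 is counted with the set by its name but is no classical cadherin: it is held by a lipid anchor and has no cytoplasmic tail.

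The libraries held 62155041 to 74979806 counts. Levels are given in CPM (counts per 1000000 counts, scaled by TMM). Genes of the pigment epithelium, which lies against the photoreceptors, varied within each light. Rpe65, an isomerase of retinoid metabolism, was at 14.4, 102 and 7.76 CPM in green libraries 1 to 3, at 61.0, 63.8 and 98.6 CPM in blue and at 44.9, 144 and 15.1 CPM in white. The summed level of the 16 listed pigment epithelium markers ran from 850 to 1379 CPM in green, 1157 to 1398 CPM in blue and 898 to 1431 CPM in white. None of the 16 was at 0 in all libraries, and 1 of them, Rlbp1, is also in the list of Müller glia markers used here. The sum rests mainly on the abundant Rlbp1, Rgr and Otx2, and Otx2 varied little, from 202 CPM in white 1 to 253 CPM in green 2. The sum therefore moved less between libraries than Rpe65 did.

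No cadherin or protocadherin differed between lights at an adjusted p under 0.05. In edgeR's quasi-likelihood test over all 15469 genes, 0 of the 32 passed for green against white, for blue against white, for green against blue, and in the joint test of any difference among the lights. The share of all genes called was 0.00646% for green against white, 0.00646% for blue against white, 0% for green against blue and 0.00646% in the joint test. The smallest adjusted p among the 32 was 0.852, 0.99996 and 0.621 in the 3 comparisons in that order, and 0.795 in the joint test (Cdh9). DESeq2 also called 0 of the 32 in each comparison and in the joint test, while it called 0.155%, 0.181%, 0.31% and 0.53% of all genes. Libraries with a shared animal label entered these tests as if they were independent.

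At an unadjusted p under 0.05 in edgeR stood 0 of the 32 genes for green against white, where 5.81% of all genes did. For blue against white there were 3 (Pcdh17, Pcdhb2 and Cdh9), where 4.45% of all genes reached that p, and for green against blue 3 (Cdh9, Cdh5 and Pcdh18), where 7.18% did. In the joint test Cdh9 alone of the 32 reached it, where 5.94% of all genes did. DESeq2 put 0, 5 and 4 genes of the 32 under that p in the same 3 comparisons, where 5.99%, 4.7% and 7.61% of all genes were, and 2 in the joint test, where 7.1% were. As shares of 32 genes, 3 is 9.38%. Among the 3 for green against blue, Cdh5 passed the filter through blue and white libraries only, so it lends no support. The median log2 difference over the 32 was -0.03 for green against white, -0.02 for blue against white and 0.02 for green against blue, and over all genes tested it was 0.01, 0.00 and 0.00.

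**Figure D1:**
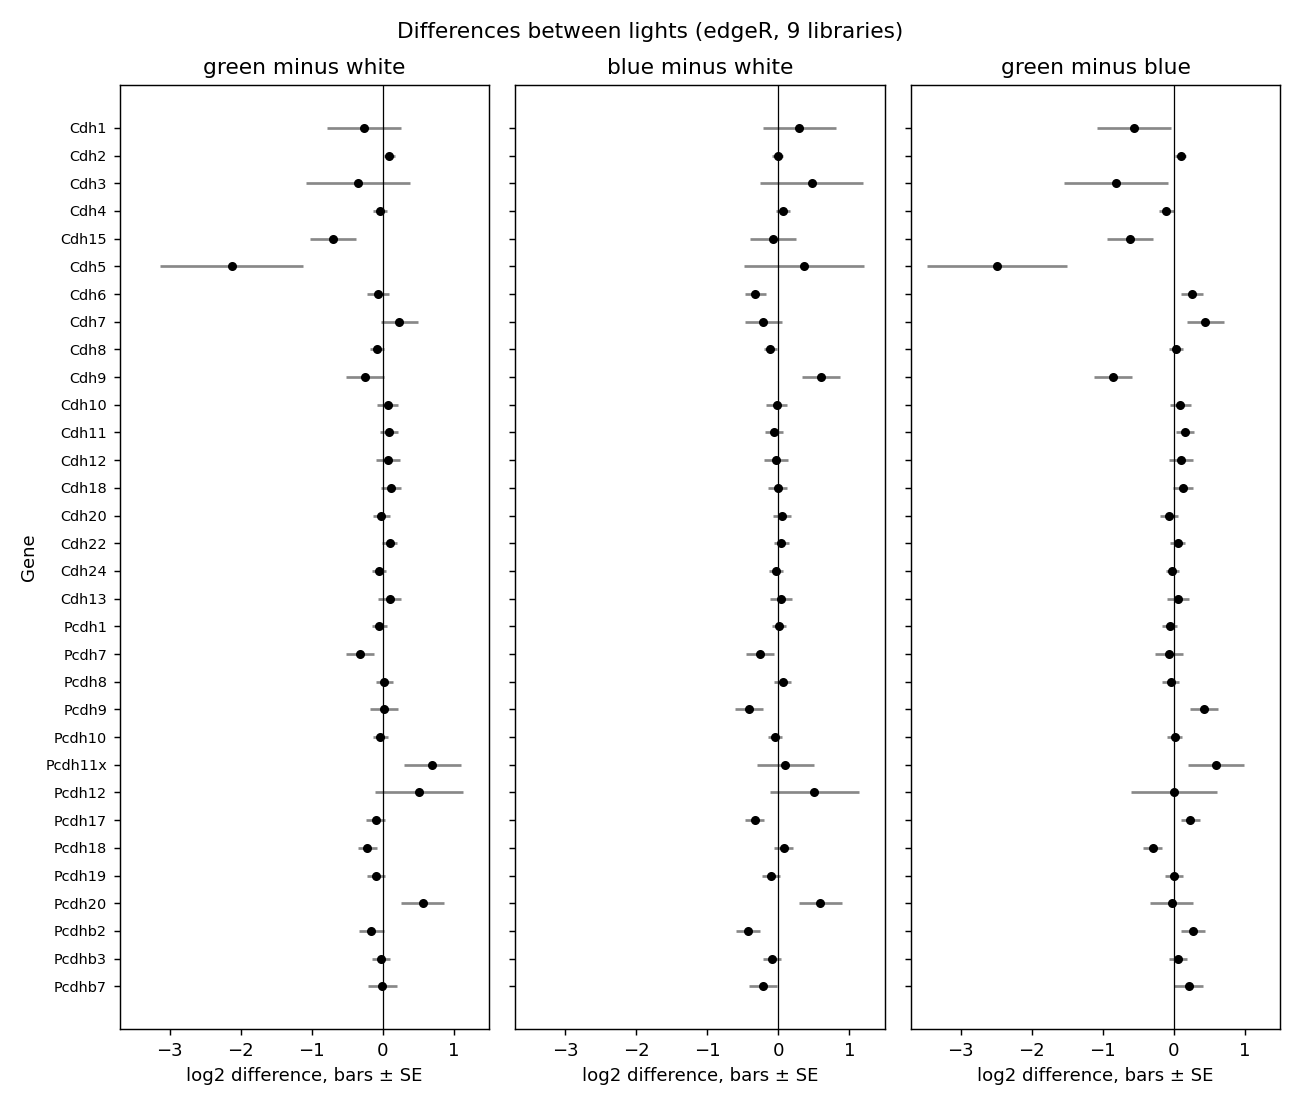
log2 differences of the 32 cadherin and protocadherin genes in the 3 comparisons (panels), from edgeR over 9 libraries; points are fitted differences, first-named light minus the other, and bars are ± SE. Most genes sit near 0 and no gene passed the threshold in any panel; Cdh5, with few counts, lies far left where green is compared, a fitted value that depends on the prior count.

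Of the type I cadherins, Cdh2 encodes N-cadherin, the adhesion molecule of neuronal junctions and of the outer limiting membrane of the retina. It had 113, 121 and 122 CPM in green libraries 1 to 3, 113, 104 and 116 CPM in blue and 119, 107 and 109 CPM in white. The 3 lights overlapped, and the ratio of the highest to the lowest library, 1.18, was the smallest of the 32 genes. The log2 difference was 0.09 ± 0.08 (SE) for green against white and -0.01 ± 0.08 for blue against white, a value whose sign depends on the libraries used. Green against white ran from 0.06 without white 2 to 0.14 without white 1. Cdh4, which encodes R-cadherin, the retinal cadherin, averaged 56.9 ± 7.77 CPM in green, 61.1 ± 3.51 CPM in blue and 58.4 ± 2.03 CPM in white (SD, n = 3 each).

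Cdh3, which encodes P-cadherin, a junction protein of the pigment epithelium whose loss in humans causes macular dystrophy with sparse hair, varied more between libraries than any other of the 32 genes with a count in every library. It was at 1.92, 8.88 and 0.542 CPM in green libraries 1 to 3, at 4.71, 7.04 and 8.14 CPM in blue, and at 4.45, 7.57 and 2.35 CPM in white. The lowest and the highest of the 9 values thus both came from green light, a 16.4-fold range, and green 1 and green 2 share an animal label. The biological coefficient of variation that edgeR estimated for Cdh3 was 61.1%, against a median of 14.6% over the 32 genes and 13.9% over all genes.

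From lowest to highest, the libraries ran green 3, green 1, white 3, white 1, blue 1 and blue 2 in Cdh3, and these 6 stood in the same order at the low end of Rpe65. Pmel, a pigment cell gene, began with the same 5: it was at 8.14, 93.1 and 3.89 CPM under green light, 57.5, 76.2 and 95.1 CPM under blue light and 39.8, 71.4 and 22.2 CPM under white light. The listed pigment epithelium markers did not all share this order. Lrat and Ttr were also lowest in green 3. Slc45a2, in contrast, was highest in green 3 (42.9 CPM) and lowest in green 2 (27.7 CPM), and Krt8 was highest in green 3 (80.7 CPM). With the level of pigment epithelium markers as a covariate the log2 difference of Cdh3 between green and white was 0.16 ± 0.52, against -0.35 ± 0.73 without it, and between green and blue it was -0.16 ± 0.55, against -0.82 ± 0.73 without it. Single green libraries also moved the difference between green and blue: it was -2.42 ± 0.58 without green 2, -0.49 ± 0.80 without green 1 and -0.30 ± 0.58 without green 3. The covariate averages all the listed markers, Slc45a2 and Krt8 included. The part of the pigment epithelium in the level of Cdh3 was not tested further. In bulk tissue, fewer cells of a type and less RNA per cell cannot be told apart. Cdh1, which encodes the epithelial E-cadherin, had 0.924, 1.09 and 0.471 CPM under green light, 0.365, 1.93 and 1.38 CPM under blue light and 0.943, 0.968 and 1.08 CPM under white light. Its lowest and its highest library were both blue.

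**Figure D2:**
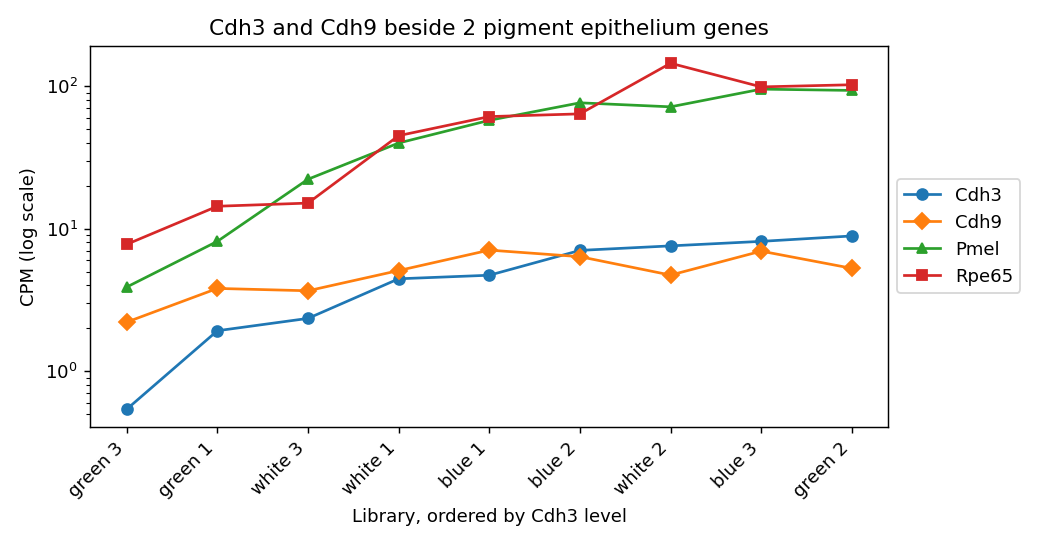
CPM of Cdh3, Cdh9 and the pigment epithelium genes Pmel and Rpe65 on a log axis, with the 9 libraries ordered by Cdh3; lines join the points of a gene and mark no time course. Cdh3, Pmel and Rpe65 climb together from green 3 to blue 1, and the 3 libraries lowest in Cdh3 are also the 3 lowest in Cdh9. White 2, highest in Rpe65, lies below the blue libraries in Cdh9.

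Cdh15, which encodes the M-cadherin of muscle, had 0.795, 0.966 and 0.999 CPM under green light, 1.05, 1.70 and 1.496 CPM under blue light and 1.62, 1.88 and 0.965 CPM under white light. All 3 green libraries lay below all 3 blue ones, while white 3 lay among the green values. Green against white gave a log2 difference of -0.70 ± 0.32, the smallest p of the set in that comparison (edgeR adjusted p = 0.852), and green against blue gave -0.62 ± 0.32 (adjusted p = 0.729).

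Among the type II cadherins, Cdh9 had the smallest p of the 32 genes in the joint test (edgeR unadjusted p = 0.0205, adjusted p = 0.795), a rank that some gene must hold. In the mouse retina Cdh9 directs a type of ON bipolar cell to its layer of the inner plexiform layer. It had 3.81, 5.27 and 2.21 CPM in green libraries 1 to 3, 7.07, 6.36 and 6.95 CPM in blue and 5.08, 4.72 and 3.67 CPM in white. All 3 blue libraries lay above all others, and green and white overlapped. The log2 difference was -0.85 ± 0.27 for green against blue (edgeR adjusted p = 0.621) and 0.60 ± 0.27 for blue against white (adjusted p = 0.99996); both comparisons use the same blue libraries. Green 3, green 1 and white 3, the libraries lowest in Rpe65, were also the lowest in Cdh9. The order differed in the other libraries. White 2 had the highest Rpe65 (144 CPM) but lay below white 1 in Cdh9, and blue 1, highest in Cdh9, had 61.0 CPM of Rpe65. With the pigment epithelium level as a covariate the difference between green and blue was -0.56 ± 0.28, and without green 3 it was -0.58 ± 0.21. The part of the pigment epithelium in the level of Cdh9 was not tested further.

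Cdh8, which in the mouse directs a type of OFF bipolar cell, averaged 37.4 ± 3.13 CPM in green, 36.7 ± 1.49 CPM in blue and 39.6 ± 2.90 CPM in white (SD, n = 3 each). The lights overlapped in every pair. Cdh10, a partner of Cdh6 and Cdh9 in mouse direction-selective circuits, averaged 8.81 ± 1.11 CPM in green, 8.27 ± 0.640 CPM in blue and 8.42 ± 0.924 CPM in white. Cdh11, first known from bone-forming cells, averaged 18.7 ± 0.840 CPM in green, 16.8 ± 1.78 CPM in blue and 17.6 ± 2.36 CPM in white libraries.

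The neuronal members Cdh12, Cdh18, Cdh20, Cdh22 and Cdh24 had group means that differed by less than the SD within at least 1 of the groups compared. Cdh22 averaged 50.5 ± 1.40 CPM in green, 48.7 ± 6.24 CPM in blue and 47.3 ± 4.18 CPM in white. Cdh18 averaged 12.2 ± 1.75 CPM in green, 11.1 ± 0.692 CPM in blue and 11.2 ± 1.05 CPM in white. Together with Cdh10 and Cdh11, and with Cdh8, these made up the 8 of 12 type II genes tested whose highest library was less than 1.5 times the lowest. Cdh13, the lipid-anchored T-cadherin, averaged 47.9 ± 4.03 CPM in green, 45.9 ± 7.17 CPM in blue and 44.8 ± 9.84 CPM in white.

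Cdh5 encodes VE-cadherin, the junction protein of blood vessels; the guinea pig retina has no vessels of its own. It had 3, 0 and 3 counts in green libraries 1 to 3, 12, 10 and 13 counts in blue and 8, 3 and 14 counts in white. All 3 green libraries lay below all 3 blue ones, and 2 green libraries equalled white 2 in counts. No green library had the 10 counts of the filter, so Cdh5 was tested only because of blue and white libraries. Its low values in green therefore carry no test. At 3 counts or fewer a library is at the floor of 0.0385 to 0.0483 CPM, the level that a count of 0 still allows. This floor holds only if a unit of the counts is 1 fragment, and a larger unit would raise it. No fold is given (edgeR unadjusted p = 0.0283 and adjusted p = 0.656 for green against blue). Of the other genes listed for vessels, Pecam1 was between 0.112 and 1.18 CPM, Cldn5 was at 0 in 6 libraries and at most 0.115 CPM, and Vwf was between 0.873 and 1.61 CPM. The summed level of the 12 listed vessel and pericyte markers was 419 to 428 CPM in green, 395 to 526 CPM in blue and 495 to 567 CPM in white, with none of the 12 at 0 in all libraries. Most of that sum was Flt1 and Kdr, which encode receptors of vascular endothelial growth factor. Flt1 had 203, 249 and 218 CPM under green light, 340, 326 and 214 CPM under blue light and 387, 374 and 299 CPM under white light, a log2 difference of -0.66 ± 0.16 for green against white (edgeR adjusted p = 0.720). Kdr gave 0.16 ± 0.11 in that comparison (adjusted p = 0.936). Of the 10 markers tested, 6 were higher and 4 lower in green than in white, with a median log2 difference of 0.01, and 0 passed; their part in the counts of Cdh5 was not tested. Pcdh12, a protocadherin of endothelial cells, had 0.359, 0.312 and 0.556 CPM under green light, 0.224, 0.488 and 0.513 CPM under blue light and 0.236, 0.116 and 0.515 CPM under white light, with all lights overlapping.

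The 5 genes removed by the filter were Cdh16, a cadherin of kidney tubules, Cdh17, one of the intestine, Cdh26 and Pcdhb1, each with 0 counts in all 9 libraries, and Cdh19. The last, a cadherin of Schwann cells and other neural crest derivatives, had 11 counts in green 1, 4 in blue 3 and 0 in the other 7 libraries. A count of 0 allows up to 0.0483 CPM in the shallowest library, if a unit of the counts is a single fragment.

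**Figure D3:**
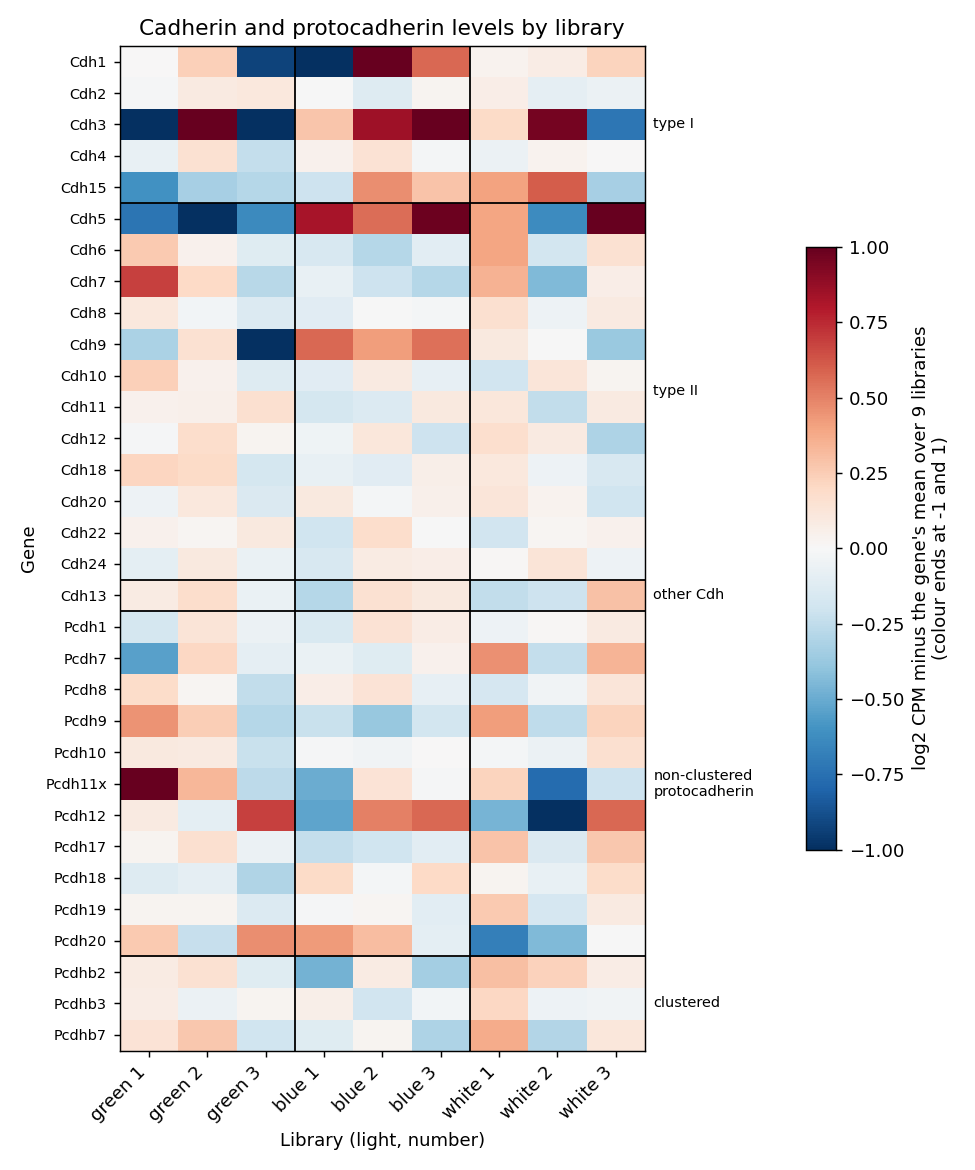
Level of each of the 32 genes in each library, as log2 CPM minus the gene's mean over the 9 libraries (red above, blue below, colours end at -1 and 1), with genes by class and libraries by light. Cdh1, Cdh3 and Cdh5 reach both ends of the colours, Pcdh11x, Pcdh12 and Cdh9 reach 1 end, and most other rows are pale.

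Among the non-clustered protocadherins, Pcdh1, an adhesion gene of epithelium and neurons, averaged 126 ± 13.6 CPM in green, 131 ± 13.6 CPM in blue and 130.3 ± 6.32 CPM in white (SD, n = 3 each). Pcdh8, a synaptic protocadherin that responds to activity and helps to internalise N-cadherin, averaged 66.6 ± 9.88 CPM in green, 68.7 ± 5.10 CPM in blue and 65.7 ± 6.56 CPM in white. Pcdh10, which acts in axon growth and synapse elimination, averaged 61.8 ± 7.63 CPM in green, 61.3 ± 0.840 CPM in blue and 63.3 ± 5.29 CPM in white. In each of these 3 genes the lights overlapped in every pair.

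Pcdh18 had 8.14, 8.35 and 7.22 CPM in green libraries 1 to 3, 10.1, 8.77 and 10.2 CPM in blue and 9.08, 8.47 and 10.1 CPM in white. All green libraries lay below all others, by a narrow margin from 8.35 to 8.47 CPM. Its log2 difference was -0.30 ± 0.13 for green against blue (edgeR adjusted p = 0.690) and -0.22 ± 0.13 for green against white (adjusted p = 0.913). In CPM, 2 genes of the set, Pcdh18 and Cdh5, had green and white libraries that did not overlap, where 10.1% of all genes did not. For Cdh5 that gap came from library size alone, since 2 green libraries and white 2 had the same count.

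Pcdh17, which acts in axon extension and in synapses of the basal ganglia, had 15.6, 17.2 and 14.7 CPM under green light, 12.96, 13.4 and 14.2 CPM under blue light and 18.7, 13.9 and 18.4 CPM under white light. All blue libraries lay below all green ones, and white 2 lay among the blue ones. The log2 difference was -0.33 ± 0.13 for blue against white (edgeR unadjusted p = 0.0289, adjusted p = 0.99996), the smallest p of the set in that comparison, and 0.23 ± 0.13 for green against blue (adjusted p = 0.747), where it was 0.15 ± 0.16 with the pigment epithelium covariate. Between green and blue, 5 genes of the set did not overlap (Cdh5, Cdh9, Cdh15, Pcdh17 and Pcdh18), where 14.2% of all genes did not. Cdh5 is among these 5 although no green library brought it through the filter. Between blue and white Cdh9 alone did not overlap, where 9.9% of all genes did not.

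Pcdh20 had 1.59, 1.12 and 1.84 CPM under green light, 1.78, 1.64 and 1.23 CPM under blue light and 0.810, 0.968 and 1.32 CPM under white light. White 1 and white 2 lay below all other libraries, and white 3 lay among them. The log2 difference was 0.56 ± 0.30 for green against white (edgeR adjusted p = 0.913) and 0.59 ± 0.30 for blue against white (adjusted p = 0.99996), with the white libraries common to both. With the pigment epithelium covariate the difference between green and white was 0.36 ± 0.36. Pcdh11x, a protocadherin of the X chromosome in mammals, had 2.28, 1.37 and 0.899 CPM under green light, 0.758, 1.19 and 1.07 CPM under blue light and 1.27, 0.621 and 0.933 CPM under white light. Green 1 had the highest of the 9 values. Its log2 difference between green and white was 0.69 ± 0.40, and 0.27 ± 0.41 without green 1.

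Pcdh7 had 31.2, 52.6 and 42.9 CPM under green light, 43.6, 41.9 and 47.0 CPM under blue light and 62.6, 38.6 and 57.7 CPM under white light. The lights overlapped, and the libraries that share an animal label lay far apart: green 1 and green 2 differed by -0.75 and white 1 and white 2 by 0.70 on the log2 scale. The fitted difference between green and white was -0.33 ± 0.20 (edgeR adjusted p = 0.913), and with single libraries left out it ran from -0.52 ± 0.20 without green 2 and -0.51 ± 0.17 without white 2 to -0.15 ± 0.18 without green 1 and -0.19 ± 0.21 without white 1.

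**Figure D4:**
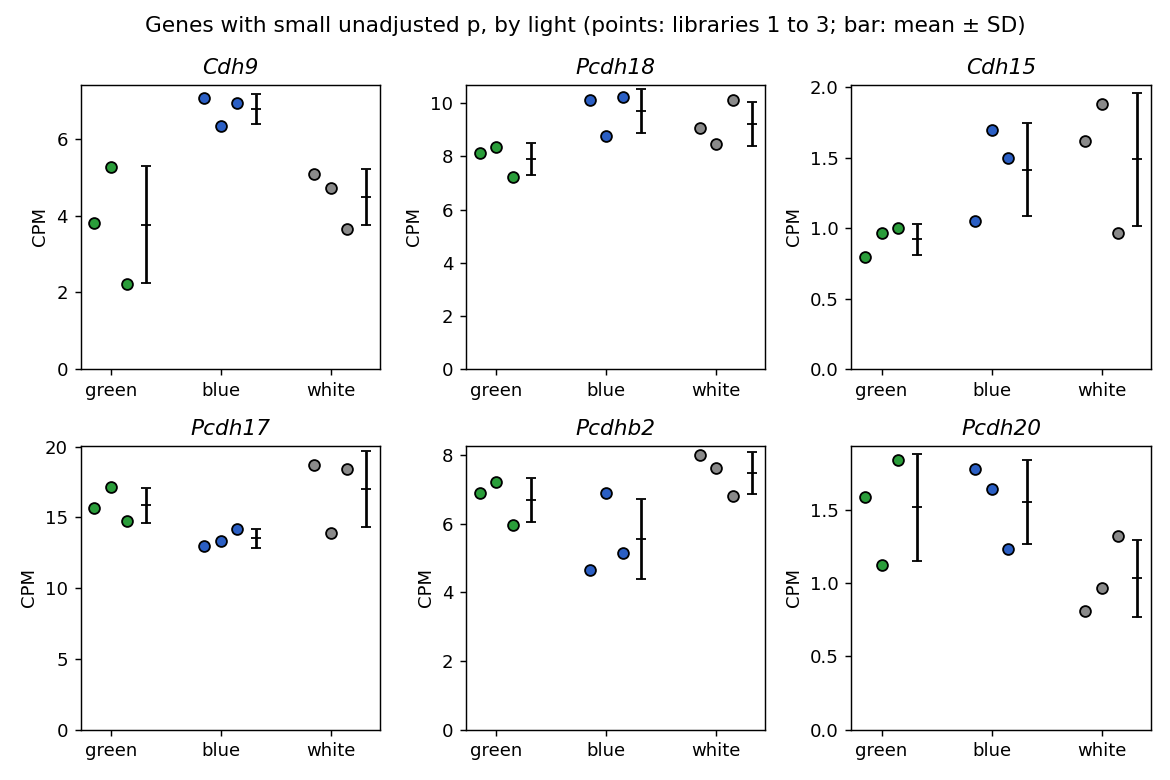
CPM of 6 genes with small unadjusted p by light; points are libraries 1 to 3 from left to right and the bar beside them is mean ± SD (n = 3). Blue lies above both other lights in Cdh9 and green lies below both in Pcdh18, while Cdh15, Pcdh17, Pcdhb2 and Pcdh20 each have white libraries among those of another light.

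Of the clustered protocadherins the table names 4, all of the beta group, and 3 were tested. Pcdhb2 had 6.89, 7.23 and 5.98 CPM under green light, 4.66, 6.89 and 5.13 CPM under blue light and 8.02, 7.61 and 6.82 CPM under white light. Blue 2 lay above white 3, so these groups overlapped, and the log2 difference for blue against white was -0.43 ± 0.17 (edgeR unadjusted p = 0.0300, adjusted p = 0.99996). Pcdhb3 averaged 10.6 ± 0.493 CPM in green, 10.1 ± 0.885 CPM in blue and 10.8 ± 1.12 CPM in white, and Pcdhb7 averaged 5.61 ± 0.917 CPM in green, 4.85 ± 0.564 CPM in blue and 5.65 ± 1.28 CPM in white. In all 3 the blue mean was the lowest of the lights, and 0 of 3 passed. Genes of this array are near-identical in parts, and how shared reads were assigned is not stated, so the split of counts among them is uncertain.

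Several genes of the set were high in the same libraries, and these were not the libraries of 1 light. Pcdh9, a protocadherin of neurons, had 31.1, 27.0 and 18.7 CPM in green libraries 1 to 3, 19.5, 17.5 and 20.04 CPM in blue and 30.5, 19.1 and 26.6 CPM in white. Green 1, green 2, white 1 and white 3 thus stood at 26.6 CPM or more and the other 5 libraries at 20.04 CPM or less. Its log2 difference was -0.42 ± 0.20 for blue against white (edgeR adjusted p = 0.99996) and 0.43 ± 0.20 for green against blue (adjusted p = 0.697). These were -0.26 ± 0.21 without white 1 and 0.27 ± 0.20 without green 1. Cdh6, a mouse marker of direction-selective ganglion cells and of cells that project to the pretectum, had 20.035, 17.2 and 15.3 CPM under green light, 14.9, 13.7 and 15.5 CPM under blue light and 21.9, 14.7 and 18.5 CPM under white light. Here too the same 4 libraries were the highest, and the difference for blue against white was -0.32 ± 0.15 (adjusted p = 0.99996), and -0.18 ± 0.15 without white 1.

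Cdh7, a type II cadherin of neural tissue, had 6.88, 4.91 and 3.52 CPM under green light, 4.07, 3.70 and 3.51 CPM under blue light and 5.45, 3.13 and 4.47 CPM under white light. Pcdh17 and Pcdhb7 were highest in those 4 libraries as well, as was Pcdh19, which binds N-cadherin and underlies an X-linked epilepsy in humans. In Pcdh19 the margin was narrow, and its means were 15.9 ± 1.05 CPM in green, 15.9 ± 0.719 CPM in blue and 17.0 ± 2.51 CPM in white. In all, 6 of the 32 genes (18.8%) had green 1, green 2, white 1 and white 3 as their 4 highest libraries, as did 613 of all genes tested (3.96%). None of the 32 had them as their 4 lowest, as 278 of all genes did (1.8%). Some listed genes outside the set also had these 4 libraries as their highest. They include the neuronal markers Slc17a6, Gad2 and Nefm, and Fat3, Fat4, Nrcam and Nipbl, so the pattern is not particular to the set. The pattern was noticed in these values, so the counts describe it and carry no test.

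The same 4 libraries had the lowest summed CPM of the 14 listed Müller glia markers, of which 13 are in the table and none was at 0 in all libraries. That sum rests mainly on a few abundant genes such as Glul and Clu. The sum was 10969 and 11564 CPM in green 1 and green 2 and 10776 and 11107 CPM in white 1 and white 3, against 11836 CPM in green 3, 11864 to 13342 CPM in the blue libraries and 12722 CPM in white 2. By the mean of log2 CPM over the list, in which each gene counts alike, the 4 were not the lowest: white 1 was at 8.4495 and green 3 at 8.446. Aqp4, a water channel of these cells, stood higher in green 1 (28.1 CPM) and white 1 (28.9 CPM) than in green 3 (19.1 CPM). The part of the glial share in the 6 genes was not tested.

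**Figure D5:**
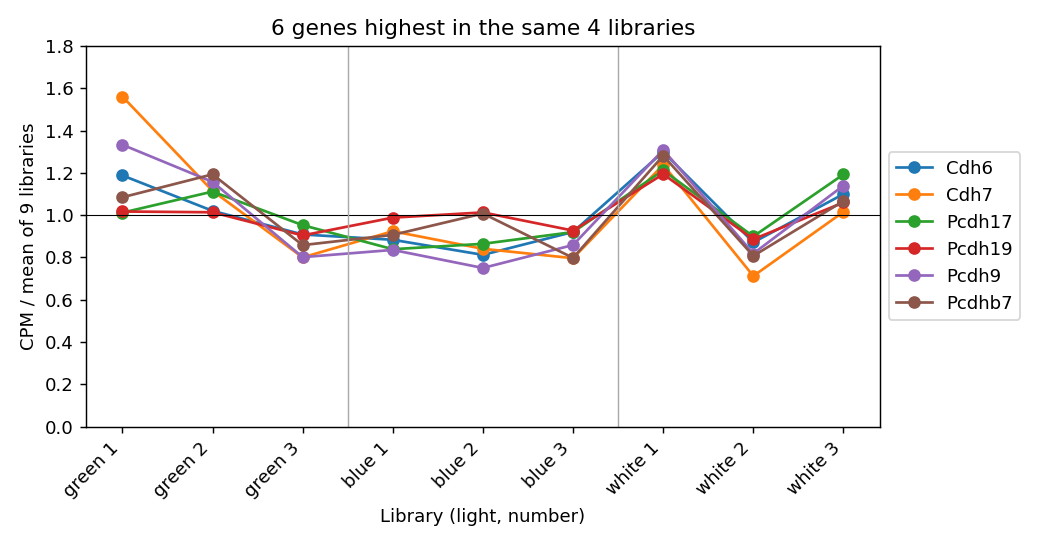
CPM of Cdh6, Cdh7, Pcdh17, Pcdh19, Pcdh9 and Pcdhb7 in each library, divided by the gene's mean over the 9 libraries; lines join the libraries of a gene and mark no order in time. All 6 genes lie above their mean in green 1, green 2, white 1 and white 3 and below it in white 2, which shares an animal label with white 1.

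Libraries of a shared animal label also differed from each other. Over the 32 genes the median size of the log2 difference was 0.19 between green 1 and green 2, 0.17 between blue 2 and blue 3 and 0.21 between white 1 and white 2. Over all genes it was 0.22, 0.12 and 0.21 for these pairs. The fitted differences between lights, which average over 3 libraries each, had a median size of 0.09 for green against white, 0.10 for blue against white and 0.10 for green against blue. Averages vary less than single libraries, so these sizes cannot be set directly against those of the pairs. Pcdh9 differed by 0.68 between white 1 and white 2, titled od and os with the same animal number, and by 0.20 between green 1 and green 2. Cdh7 differed by 0.79 between white 1 and white 2. White 1 held the highest value of the 9 libraries for 9 of the 32 genes, and green 3 the lowest for 8.

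The genes that work with cadherins were examined as lists. Of 21 catenins and junction partners, 19 were tested, and 0 passed in each comparison. Ctnna1, the alpha-catenin that links cadherins to actin, had 180.15, 199.5 and 226 CPM under green light, 179, 181 and 192 CPM under blue light and 154, 171 and 157 CPM under white light. Both coloured lights lay above white in all libraries. Its log2 difference was 0.33 ± 0.09 for green against white (edgeR adjusted p = 0.768) and 0.20 ± 0.09 for blue against white (adjusted p = 0.99996). Lima1, an actin-binding partner of alpha-catenin, averaged 68.6 ± 2.92 CPM in green, 66.4 ± 4.02 CPM in blue and 54.1 ± 8.82 CPM in white, with an adjusted p of 0.837 for green against white. Its log2 difference there was 0.34 ± 0.12, and 0.21 ± 0.09 without white 2. Ptpru, a receptor phosphatase that acts on catenins, averaged 8.40 ± 1.03 CPM in green and 7.19 ± 0.399 CPM in blue. The median log2 difference of the list was 0.03 for green against white, 0.01 for blue against white and 0.03 for green against blue.

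Of 12 genes for the processing and turnover of cadherins, all 12 were tested and 0 passed in each comparison. Pcsk6, a proprotein convertase, averaged 2.73 ± 0.431 CPM in green, 3.09 ± 0.388 CPM in blue and 1.97 ± 0.402 CPM in white (edgeR adjusted p = 0.854 and 0.986 against white). Psen2, a catalytic subunit of gamma-secretase, averaged 77.1 ± 9.72 CPM in green and 66.0 ± 1.94 CPM in blue (adjusted p = 0.671). Adam15, a membrane metalloprotease, averaged 27.1 ± 0.479 CPM in blue and 23.8 ± 0.777 CPM in white.

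Of 16 effectors of protocadherin signalling, including the WAVE complex that drives actin branching, 15 were tested and 0 passed in each comparison. Ptk2b, a kinase bound by clustered protocadherins, averaged 6.68 ± 0.172 CPM in green, 6.46 ± 0.656 CPM in blue and 5.45 ± 0.199 CPM in white, and neither coloured light overlapped with white (edgeR adjusted p = 0.852 and 0.99996). The WAVE subunit Brk1 averaged 63.6 ± 3.57 CPM in green, 72.8 ± 9.06 CPM in blue and 72.2 ± 5.25 CPM in white. Of the other subunits, Abi1 had an adjusted p of 0.99996 for blue against white, and Cyfip1 had one of 0.789 for green against blue.

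Of 14 genes that control the clustered array, such as Ctcf, cohesin and DNA methyltransferases, all 14 were tested and 0 passed in each comparison. Dnmt1, the maintenance methyltransferase, averaged 116 ± 6.97 CPM in green, 119 ± 4.96 CPM in blue and 134 ± 6.62 CPM in white, and white lay above both coloured lights in all libraries (edgeR adjusted p = 0.839 and 0.99996). Dnmt3b, which methylates promoters of the array in mice, averaged 10.2 ± 0.690 CPM in green, 8.76 ± 0.686 CPM in blue and 7.55 ± 1.67 CPM in white (adjusted p = 0.840 for green against white). For green against blue, Smchd1, a chromatin protein that silences the array in mice, had an adjusted p of 0.769, and the cohesin loader Nipbl had one of 0.781.

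Of 25 other genes of the cadherin superfamily and its modifiers, 20 were tested and 0 passed in each comparison by edgeR. Celsr3, a seven-pass cadherin of planar polarity and axon guidance, had 176, 197 and 189 CPM in green libraries 1 to 3, 146, 156 and 146 CPM in blue and 162, 166 and 177 CPM in white. Green lay above blue in all libraries, and all blue ones lay below all white ones. The log2 difference was 0.33 ± 0.07 for green against blue (edgeR adjusted p = 0.503; DESeq2 adjusted p = 0.0366, with a range over the alternatives of 0.0366 to 0.999673) and -0.17 ± 0.07 for blue against white (edgeR adjusted p = 0.99996). Cdhr2, a cadherin of microvilli, had 5.57, 7.20 and 8.09 CPM under green light, 4.01, 6.86 and 5.30 CPM under blue light and 2.43, 3.18 and 4.78 CPM under white light. All green libraries lay above all white ones, and the log2 difference was 1.01 ± 0.27 (adjusted p = 0.768).

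The giant cadherin Fat3, which shapes amacrine dendrites in the mouse, averaged 49.5 ± 9.83 CPM in green, 34.3 ± 3.86 CPM in blue and 50.6 ± 18.03 CPM in white (adjusted p = 0.693 for green against blue, where the log2 difference was 0.53 ± 0.24, and 0.21 ± 0.23 with the pigment epithelium covariate). Fjx1, a kinase-like modifier of giant cadherins, averaged 29.05 ± 3.51 CPM in green and 24.5 ± 2.87 CPM in white. Of 13 adhesion genes of the immunoglobulin superfamily that act in retinal layers, 11 were tested and 0 passed in each comparison. Cntn1, a contactin, averaged 158 ± 21.4 CPM in green, 124 ± 7.61 CPM in blue and 148 ± 23.8 CPM in white (edgeR adjusted p = 0.654 for green against blue). Ncam1 averaged 292 ± 22.4 CPM in green and 341 ± 72.7 CPM in white, Nectin3 15.3 ± 1.38 CPM in green and 17.3 ± 2.62 CPM in white, and Nrcam 112 ± 5.81 CPM in blue and 133 ± 21.3 CPM in white.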

How the data were processed

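The authors deposited whole-number counts per gene for 9 retinal RNA-seq libraries (paired-end HiSeq, Trizol RNA, per the labels' protocols); for the aligner, counter, strand setting, build and annotation, nothing is given in the sources. Counts were used as deposited. Low values are uneven (2014 values equal 4 and 472 equal 3), so a unit may not be a single fragment, and floors and intervals cover counting error only. The filterByExpr step (at least 10 counts, total of at least 15) removed 4493 genes, and all 9 libraries entered 1 fit in edgeR 4.0.16 (R 4.3.3) with TMM scaling and the light as the only term. Quasi-likelihood F tests gave 3 contrasts and a joint test, with Benjamini-Hochberg adjustment over all genes tested and a threshold of 0.05. SE was derived from the fold and its F value. DESeq2 1.42.0 and limma 3.58.1 (voom) were alternatives, with other filters, scalings, covariates and left-out libraries. The test was tried on simulated data with independent libraries, without shared animal labels, and no result given here rests on that trial. Symbols are as deposited; 34 of the 37 match the RefSeq table of mCavPor4.1. Its coordinates are not printed and no sequences were used. The genes, lists and named genes (those known in retina, the 6 of smallest p per comparison, all clustered symbols, 2 per partner list) were chosen with earlier results of these data known. Libraries are numbered by deposition and the numbers pair nothing across lights. CPM of different genes are not compared, since transcript lengths were not used. Animal labels were read from the sample titles, and some libraries of a light share one, so p-values measure the spread between libraries.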

Additional observations from a re-analysis of the deposited data

How the results depend on the processing

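Over 87 refits of the 4 tests (22 alternatives for each contrast and 21 for the joint test) no cadherin or protocadherin passed, and the smallest adjusted p was 0.183 (Cdh9 in DESeq2, green against blue). At an unadjusted p under 0.05 these refits gave 0 to 4 of them for green against white, 0 to 5 for blue against white, 1 to 5 for green against blue and 0 to 5 in the joint test. The median log2 difference of the set ranged from -0.08 to 0.05, from -0.05 to 0.02 and from -0.01 to 0.06 in the 3 contrasts. Of 1311 refitted log2 differences of named genes, 1305 kept their sign. Apart from Cdh2 and Cdh3, these genes were chosen for small p in the main fit. The refits also reuse nearly the same libraries, so the kept signs are no support for the directions. The log2 difference of Cdh2 for blue against white was 0.003 with counts summed per animal label. It ran from -0.0425 to 0.0373 when single libraries were left out, with the sign turned without blue 2 (0.0356) and without white 1 (0.0373). That of Cdh3 for green against white was 0.16 with the pigment epithelium covariate, 0.17 without green 3 and 0.15 without white 2, and -1.95 without green 2.

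Counts over all genes moved more; the main ones are 1, 1, 0 and 1 for green against white, blue against white, green against blue and the joint test. With DESeq2 they were 24, 28, 48 and 82, and without both "-B" libraries 10 and 12 against white and 12 in the joint test. With the "-B" suffix as a covariate they were 3 for blue against white, 1 for green against blue and 2 in the joint test. With the pigment epithelium covariate 0 passed for green against white and in the joint test. The contrasts with white and the joint test gave 0 with the 5 CPM filter, in voom with or without the animal label as a block, and with counts divided by 4. The correlation that voom's block fit used for libraries of a shared animal label was negative (-0.17). That fit is therefore no stricter check on the shared labels. In fits of 2 lights alone they were 0, 0 and 1, and with counts summed per animal label 0 in the joint test. Leaving out a single library gave 0 to 6, 0 to 7, 0 to 4 and 0 to 6. The cause of these shifts was not tested. No paired analysis was possible because library numbers pair nothing across lights and each animal label belongs to 1 light. Few counts limit Cdh5, Pcdh12, Cdh1, Pcdh11x, Cdh15 and Pcdh20.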
